A study of Homo sapiens with 4 samples.

Results

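Interferon-stimulated genes are the genes that cells switch on when interferon, a secreted antiviral signal, binds its receptor. Receptor-bound JAK1 and TYK2 kinases phosphorylate STAT2, which joins IRF9 in a complex that binds a promoter element rich in GAAA repeats. The products of the induced genes sense viral RNA, block its translation, trap virus particles at the membrane and modify proteins with the ubiquitin-like protein ISG15. Many of these genes also keep a basal level in tumor cells that have not been given interferon.

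The 42 genes described here were chosen by name as members of this antiviral program, and all 42 were found among the 61541 genes of the count table through their Ensembl identifiers. The cells were MDA-MB-231, an established human triple-negative breast cancer line, sequenced as 2 libraries from control cells labelled as untreated and 2 from cells made resistant to cadmium by serial passage in cadmium sulfate up to 10 µM. The labels name no genetic change, no clone and no interferon treatment in either group. The control libraries are called control 2 and control 3, after the numbers of their columns, and the cadmium libraries cadmium 1 and cadmium 2. The labels call the control libraries biological replicates and the cadmium libraries replicates, with no further word on separate cultures, so p-values measure the spread between these libraries only.

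Between 51934729 and 61916007 reads were assigned to genes per library. The 6 markers set for this line (VIM, CD44, ZEB1, AXL, CAV1 and KRT18) were all present, with a summed level of 4014 to 4113 TPM (counts per exon length, scaled to the same total in every library) in the control libraries and 3755 to 3941 TPM in the cadmium libraries. Of 5 genes set as low in this line, the hormone receptor genes ESR1 and PGR stayed below 1 TPM in all 4 libraries, while GATA3 had 10.9 to 21.1 TPM and CDH1 1.27 to 7.91 TPM. That list summed to 22.7 to 22.8 TPM in control and 13.5 to 17.4 TPM in cadmium libraries. Among 6 leukocyte markers, CD3E had no read, and the summed level was 9.20 to 10.7 TPM in control and 5.90 to 6.57 TPM in cadmium libraries, most of it from CD14. Of 3 endothelial markers, 2 stayed below 1 TPM in all libraries, and the list summed to 1.71 to 8.70 TPM in control and 6.74 to 7.53 TPM in cadmium libraries, nearly all of it PECAM1, which was lowest in control 2. The 4 fibroblast markers summed to 13.1 to 16.4 TPM and 11.2 to 13.8 TPM. The part of these low signals in the results was not tested. In bulk RNA, fewer cells that express a gene and less RNA per cell cannot be told apart.

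The GAAA repeat was searched for in the promoters. RefSeq promoter windows (GRCh38.p14, 250 bases before to 50 after a start site) were given for 33 of the 42 genes. The letters GAAA, any 2 bases and GAAA again, read on either strand (TTTC, any 2 bases and TTTC on the other), occurred in 23 of the 33 genes (69.7%) and in 1195 of all 27305 genes with a window (4.38%). The stretches printed here belong to genes on which the results turn, with the matched letters in capitals and each sequence running 5′ to 3′ on the gene's strand. The first 5 genes had both cadmium libraries below both controls.
BST2, chr19:17405738-17405767, minus strand: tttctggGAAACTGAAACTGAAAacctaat
IFIT1, chr10:89392503-89392532, plus strand: ttagTTTCACTTTCcccTTTCGGTTTCcct
ISG15, chr1:1013362-1013421, plus strand: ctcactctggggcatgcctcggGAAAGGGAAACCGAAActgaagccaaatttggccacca
ISG20, chr15:88638937-88638966, plus strand: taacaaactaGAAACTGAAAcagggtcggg
IFI27, chr14:94110609-94110668, plus strand: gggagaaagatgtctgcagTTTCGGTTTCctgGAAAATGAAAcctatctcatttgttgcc
The next 3 genes, SAMD9, IFI44 and EPSTI1, had cadmium libraries that fell between control libraries lying far apart.
SAMD9, chr7:93118081-93118140, minus strand: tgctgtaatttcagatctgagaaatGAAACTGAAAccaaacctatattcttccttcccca
IFI44, chr1:78649729-78649788, plus strand: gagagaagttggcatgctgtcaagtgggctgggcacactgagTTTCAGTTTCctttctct
EPSTI1, chr13:42992272-42992301, minus strand: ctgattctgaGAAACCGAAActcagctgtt
The last one, IFITM3, had nearly the same level in all 4 libraries.
IFITM3, chr11:320870-320929, minus strand: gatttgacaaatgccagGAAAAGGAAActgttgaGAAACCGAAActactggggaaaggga
The BST2 and ISG15 stretches hold overlapping copies, in which GAAA serves as the end of one match and the start of the next. IFIT1 and IFITM3 hold a pair of separate copies, and IFI27 holds one copy on each strand. The match was found in 12 of the 14 genes with a window whose cadmium libraries both lay below both controls (85.7%) and in 11 of the other 19 genes (57.9%). None of the 3 transcription factor genes with a window held it. A match describes letters only and was not tested as a binding site.

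Against the control libraries, 3 of the 42 genes passed the test and all 3 were lower in the cadmium-resistant cells. They were BST2, IFIT1 and OASL (DESeq2 Wald test, adjusted p below 0.1 over all genes tested). No member was called higher. Over all 19834 genes tested, 0.534% were called lower and 0.6% higher, or 1.13% in all. A further 9 members had a lower level at an unadjusted p below 0.05 and did not pass adjustment, which gave 12 of 42 (28.6%) beside 3.88% of all genes tested. None was higher at that limit, beside 3.05% of all genes. The calls depended on the tool, since edgeR and limma-voom called none of the 42 genes and none of all genes. At an unadjusted p below 0.05, edgeR had 10 of the members and limma-voom 9, all of them lower. Over all genes edgeR had 3.71% lower and 7.39% in either direction, and limma-voom 3.31% and 7.4%.

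**Figure D1:**
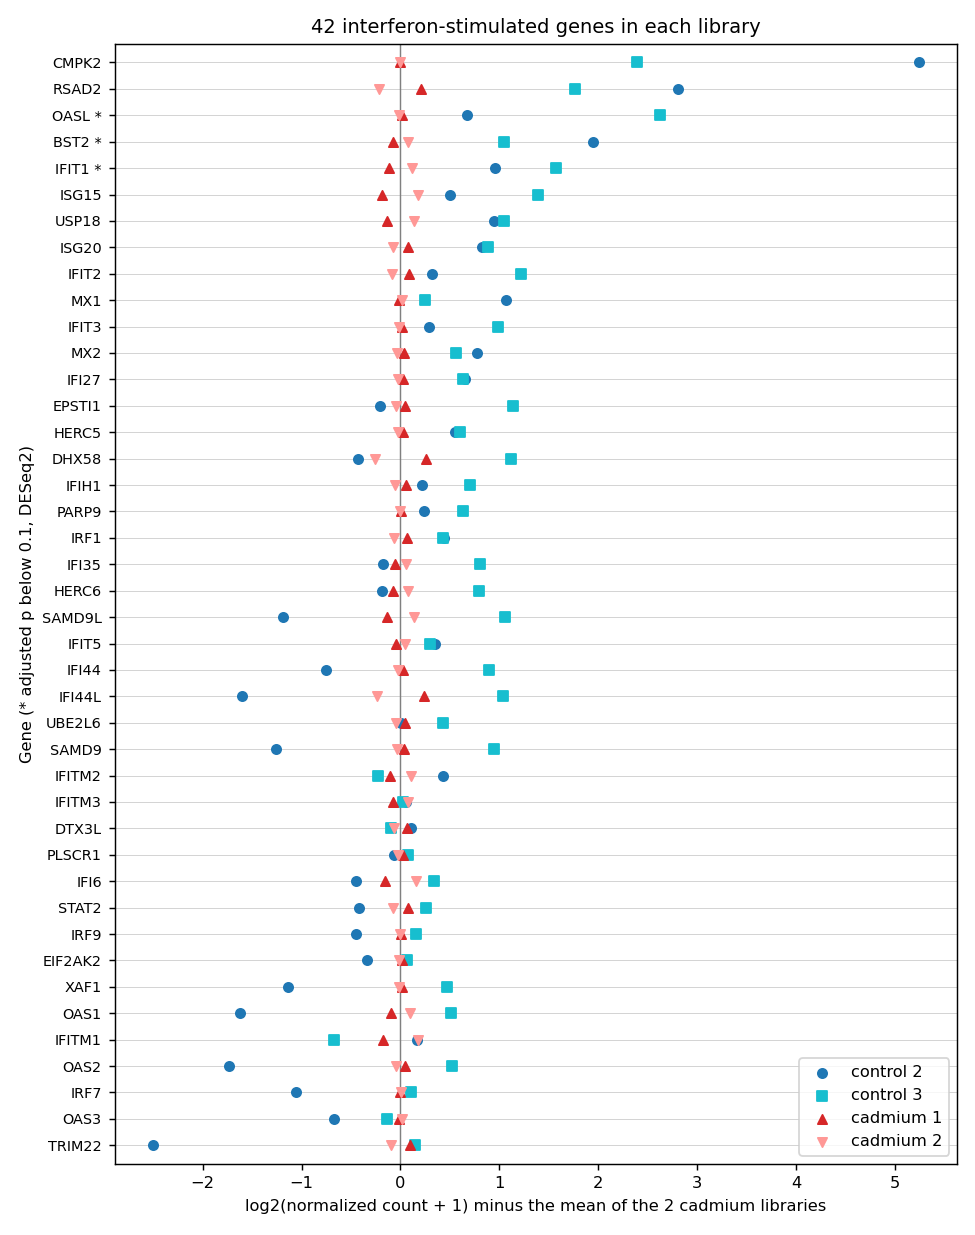
Each row is 1 of the 42 genes and each symbol 1 library, placed by log2 of its normalized count plus 1 minus the mean of both cadmium libraries, so cadmium symbols lie around 0. Genes are ordered by fold change. At the top both controls lie to the right, and in the lower part control 2 lies to the left for most genes, with control 3 to the right or near 0 except in IFITM1, IFITM2 and OAS3.

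Across the 42 genes the log2 fold change (cadmium over control) was below 0 in 31 and above 0 in 11, with a median of -0.36, beside -0.03 over all expressed genes. A normalized count is the read count divided by the size factor of its library, and expressed genes are those that average 10 or more of them. A value below 0 was found for 52.6% of all genes tested. Both cadmium libraries lay below both controls in 18 genes (42.9%, beside 19.9% of all genes tested). They lay above both controls only in OAS3 (2.38%, beside 20.3%). In 20 genes both cadmium libraries fell between the controls (47.6%, beside 31.2% of expressed genes), and in 18 of these control 3 was the higher control. The 3 genes left, IFITM1, IFITM3 and UBE2L6, had cadmium libraries on either side of a control. The summed level of the 42 genes was 2134 TPM for control 2 and 2607 TPM for control 3, against 1680 TPM for cadmium 1 and 1746 TPM for cadmium 2. Most of the gap to control 2 was BST2 alone, with 538 TPM there and 144 and 154 TPM in the cadmium libraries. The median TPM of the members was 12.0 and 27.3 in the controls and lay between these values in both cadmium libraries, and their share of all counts was 0.136% and 0.190% against 0.134% and 0.135%.

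The lowest adjusted p belonged to BST2 (ENSG00000130303, chr19:17402939-17405630, hg38, minus strand), which encodes tetherin, a membrane protein that holds budding virus particles on the cell. Its normalized count was 8181 for control 2 and 4388 for control 3, against 2011 for cadmium 1 and 2234 for cadmium 2. The cadmium libraries lay close together and under both controls, which themselves were 1.86-fold apart. The log2 fold change was -1.57 (SE 0.37, DESeq2 adjusted p = 0.0046), or 2.96-fold lower. Its level was 425 ± 160 TPM in control (SD, n = 2) and 149 ± 7.02 TPM in cadmium cells (SD, n = 2), and per length BST2 had the highest control mean of the 42 genes. Set against the median of the 40 nearest genes on the chromosome that averaged 100 or more normalized counts, the log2 change was -1.47.

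IFIT1 (ENSG00000185745, chr10:89392546-89406487, plus strand) encodes a protein that binds viral RNA lacking the host cap mark and blocks its translation. It had normalized counts of 2407 and 3698 in control 2 and control 3 and of 1142 and 1345 in cadmium 1 and cadmium 2. Again the groups did not overlap. The log2 fold change was -1.30 (SE 0.33, DESeq2 adjusted p = 0.0146), or 2.46-fold lower, while the nearest genes had a median of -0.02.

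OASL (ENSG00000135114, chr12:121017763-121039242, minus strand), an OAS-like protein that binds and enhances the RNA sensor RIG-I, gave 773 and 2987 normalized counts in control 2 and control 3 and 490 and 477 in the cadmium libraries. The cadmium values were nearly equal, and the controls differed 3.86-fold. The log2 fold change was -1.96 (SE 0.56, DESeq2 adjusted p = 0.0538), which missed a limit of 0.05. It was -0.69 against control 2 alone and -2.63 against control 3 alone, so control 3 set most of its size.

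The rest of the IFIT family, RNA-binding proteins encoded side by side on chromosome 10, lay below both controls in both cadmium libraries without passing the test. IFIT2 had 2715 and 5088 normalized counts in the controls and 2317 and 2055 in cadmium cells, a log2 difference of -0.84 (DESeq2 adjusted p = 0.535). For IFIT3 the counts were 4727 and 7656 against 3903 and 3842. IFIT5 stood lower by the least, with 2666 and 2561 in control and 2022 and 2154 in cadmium libraries. All 4 genes thus shared a direction, with a median log2 fold change of -0.76, and their nearest neighbours on the chromosome had a median of -0.02. Close paralogs such as these share sequence, and reads that map to several places were not counted.

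ISG15, the ubiquitin-like protein that is attached to newly made proteins, and the enzymes around it all had a negative log2 fold change, with a median of -0.58 and no call among the 5 genes. ISG15 itself (chr1:1001138-1014540, plus strand) had 3053 and 5661 normalized counts in control 2 and control 3 and 1906 and 2453 in cadmium 1 and cadmium 2. It was 2.00-fold lower with no overlap, at a DESeq2 adjusted p of 0.317. USP18, the protease that removes ISG15 and damps interferon receptor signaling, had 238 and 255 in control against 112 and 135 in cadmium libraries (1.99-fold lower, DESeq2 adjusted p = 0.323). These controls agreed closely, and every pairing of a cadmium with a control library differed by more than 1.5-fold. HERC5, the main ligase for ISG15, had 3322 and 3460 in control against 2309 and 2235. UBE2L6, its conjugating enzyme, had 2391 and 3205 against 2445 and 2310, and HERC6 had 679 and 1340 against 731 and 816. In both of these control 2 lay within or below the cadmium values.

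The 5 genes grouped here as nucleotide and RNA enzymes all had a negative log2 fold change, and none was called. That name does not describe PARP9 and DTX3L, and the value of DTX3L was only -0.0076 (SE 0.26). RSAD2 (viperin), which makes a chain-terminating nucleotide, had 71.0 and 34.0 normalized counts in control and 10.9 and 7.90 in cadmium libraries. The difference was 5.58-fold and did not pass (DESeq2 adjusted p = 0.189), and it was 3.61-fold without control 2 and 7.59-fold without control 3. CMPK2, a nucleotide kinase encoded next to RSAD2 on the opposite strand, had 39 reads in control 2, 4 in control 3 and none in either cadmium library. With 3 counts per library as the limit that a count of 0 allows, it was at least 6.92-fold lower than the control mean, or at least 3.46-fold where both mates of a pair give a count and the limit is 6. Control 2 carried this, because against control 3 alone the bound was 1.43-fold at a limit of 3 and no decrease could be bounded at 6. Such limits cover counting error only. The exons of the pair overlap, and reads in the shared bases were dropped because strand was not used. ISG20, an exonuclease that degrades RNA, had 634 and 663 in control and 377 and 341 in cadmium libraries, 1.81-fold lower without overlap (DESeq2 adjusted p = 0.213). Its nearest genes on the chromosome had a median log2 change of -0.41, so that ISG20 differed from them by -0.44. PARP9 had 952 and 1254 against 812 and 806, while its partner DTX3L had 2480 and 2152 against 2412 and 2196.

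**Figure D2:**
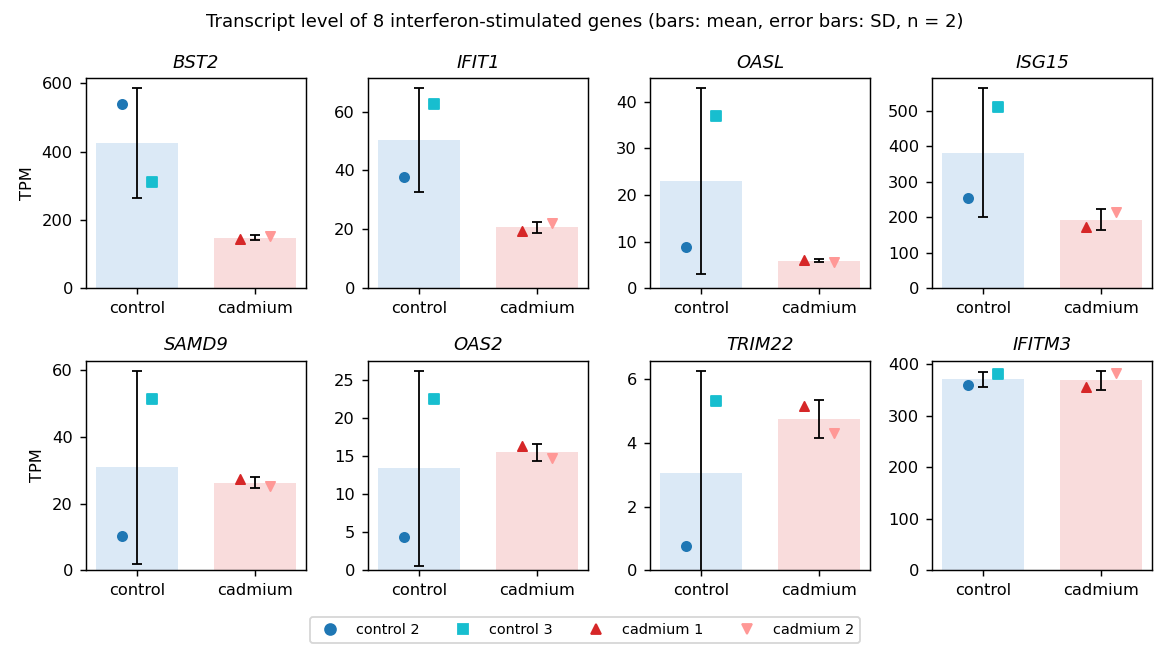
Transcript level in TPM of 8 of the genes, with the mean as a bar, the SD (n = 2) as an error bar cut at 0 and each library as a symbol. BST2, IFIT1, OASL and ISG15 have both cadmium symbols below both controls, in SAMD9, OAS2 and TRIM22 the controls lie far apart with cadmium between them, and IFITM3 lies between 356 and 383 TPM in every library.

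None of the other 9 genes grouped here as blockers of entry and release passed the test. The name is loose, since the group also holds SAMD9, SAMD9L and TRIM22, which are described further below. The IFITM proteins keep viral membranes from fusing with the cell. IFITM3 came next after BST2 and ISG15 in mean TPM in control cells, with 361 and 381 TPM in control and 356 and 383 TPM in cadmium libraries, a log2 difference of -0.04 (SE 0.24). IFITM2 had 5160 and 3269 normalized counts in control against 3555 and 4113, and IFITM1 had 1239 and 693 against 977 and 1251. In all 3 the groups overlapped. The dynamin-like GTPases MX1 and MX2, which block incoming viral particles, lay lower in both cadmium libraries, with 1123 and 637 against 531 and 543 for MX1 and 220 and 189 against 131 and 125 for MX2. Neither passed (DESeq2 adjusted p = 0.739 and 0.807). PLSCR1, a scramblase with antiviral activity, lay between 1272 and 1405 in all 4 libraries.

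For many of the genes the control libraries lay far apart, and the cadmium libraries fell between them. In 14 of 42 genes the controls were more than 2-fold apart (33.3%, beside 22.2% of expressed genes), and in 12 of these control 3 was the higher. The cadmium libraries fell inside that gap in 11 of the 14. The matching share over all genes with controls so far apart was not computed, so this count is not read as particular to the members. No member had cadmium libraries more than 2-fold apart, beside 5.19% of expressed genes. The controls differed by a median absolute log2 value of 0.80 and the cadmium libraries by 0.11, beside 0.47 and 0.16 over expressed genes. Control 3 was higher than control 2 in 30 of the 42 genes (71.4%, beside 49.1% of expressed genes).

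SAMD9 and its paralog SAMD9L, cytosolic proteins that restrict poxviruses and lie side by side on chromosome 7, had such a pattern. SAMD9 (chr7:93099513-93118023, minus strand) had 977 normalized counts in control 2 and 4507 in control 3, a 4.61-fold gap, and 2392 and 2289 in the cadmium libraries. SAMD9L had 571 and 2710 in the controls, a 4.75-fold gap, and 1183 and 1430 in the cadmium libraries. Their neighbouring genes had a median log2 ratio of only 0.02 between the controls, and their median did not share the gap.

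The OAS enzymes make the short adenylate chains that activate RNase L once they meet double-stranded RNA. OAS1 had 92.7 and 410 normalized counts in control 2 and control 3 and 270 and 307 in cadmium libraries. OAS2 had 677 and 3233 in the controls, 4.78-fold apart, and 2330 and 2192 in cadmium 1 and cadmium 2. OAS3, the third gene of this cluster on chromosome 12, had 2754 and 3989 in the controls and 4332 and 4420 in cadmium libraries, above both. Its log2 fold change over the control group was 0.38 (DESeq2 adjusted p = 0.983), and it was 0.13 with control 2 left out. OASL, in contrast to the cluster, lay below control 2 as well. Of the other RNA sensors, IFIH1 (MDA5) had 831 and 1162 against 741 and 686, DHX58 (LGP2) had 285 and 835 against 457 and 321, and EIF2AK2 (PKR), the kinase that halts translation on viral RNA, had 5238 and 6955 against 6719 and 6552.

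TRIM22, an antiviral ubiquitin ligase, had the highest fold change of the 42 genes and a wide error, at 0.64 (SE 0.71, log2). Its normalized count was 63.4 for control 2 and 404 for control 3, against 390 for cadmium 1 and 340 for cadmium 2. Its neighbouring genes had a median log2 ratio of control 3 to control 2 of 0.54. IRF7, the factor that amplifies interferon production, had a like pattern. It had 752 in control 2, 1690 in control 3, and 1560 and 1580 in the cadmium libraries. Its neighbours had a median log2 ratio of 0.47 between the controls. The IFITM genes, on the same chromosome as IRF7, had neighbours with a median log2 ratio of control 3 to control 2 of 0.51. Their own log2 ratios of control 3 to control 2 were -0.84 (IFITM1), -0.66 (IFITM2) and -0.03 (IFITM3). Of the factors, IRF1 alone lay lower in both cadmium libraries, with 2066 and 2051 against 1594 and 1447 (log2 difference -0.44, DESeq2 adjusted p = 0.826). STAT2 and IRF9, subunits of the complex that binds these promoters, had 3516 and 5638 against 4977 and 4472 and 72.9 and 112 against 100 and 99.7. Exons of other genes cover 42.2% of the IRF9 exons, 38.3% of those of XAF1, 31.6% of IFITM1, 23.1% of IFI6 and 22.9% of IRF1, and reads in them were not counted.

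The remaining genes are interferon-induced proteins of less settled function. IFI27, a small mitochondrial protein, had tightly grouped values of 1355 and 1341 in control and 880 and 849 in cadmium libraries, 1.56-fold lower (DESeq2 adjusted p = 0.420). IFI44 and IFI44L had controls 3.13-fold and 6.38-fold apart, with 623 and 1949 against 1066 and 1032 for IFI44 and 35 and 223 against 127 and 91.8 for IFI44L. EPSTI1 had 154 and 393 against 184 and 172, and XAF1, a proapoptotic protein, had 132 and 403 against 294 and 289. In EPSTI1 the cadmium libraries lay near control 2, in XAF1 nearer control 3. IFI35 had 939 and 1852 against 1020 and 1097, and IFI6 had 245 and 424 against 302 and 373.

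**Figure D3:**
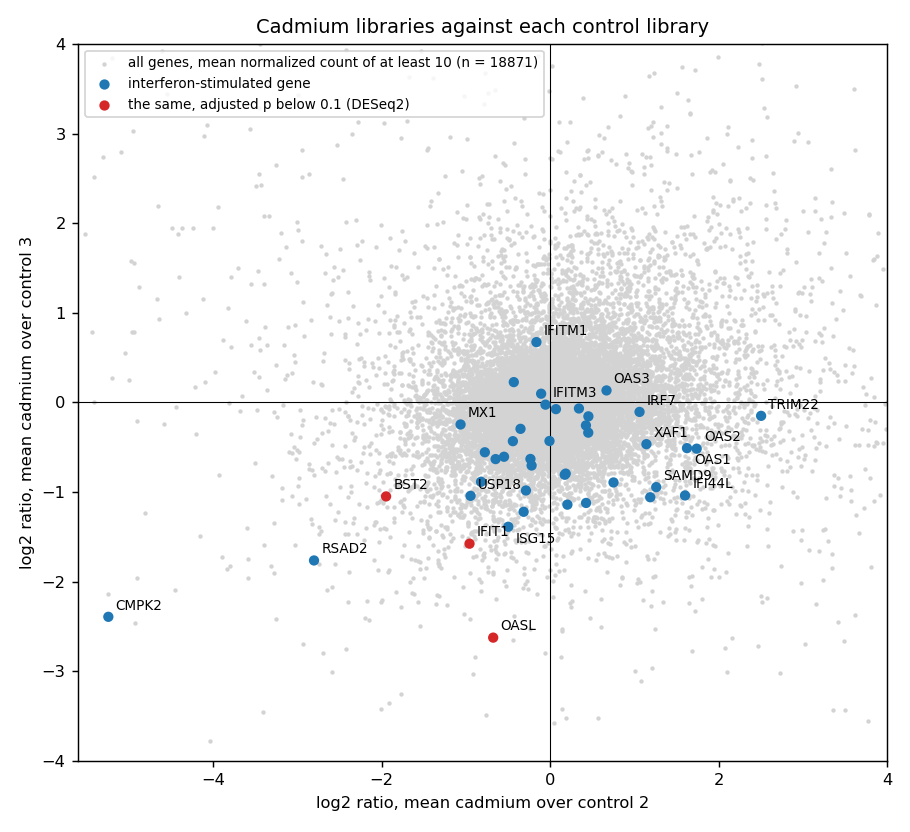
Log2 ratio of the mean cadmium level to control 2 (x axis) and to control 3 (y axis), each from log2 of the normalized count plus 1, for the 42 genes and for 18871 genes in grey. BST2, IFIT1 and OASL lie at lower left with RSAD2 and CMPK2, while TRIM22, OAS1, OAS2 and SAMD9 lie to the right of 0 and below it.

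Which control was used changed the comparison. Both cadmium libraries lay below control 3 in 37 of the 42 genes (88.1%, beside 40% of expressed genes) and below control 2 in 20 (47.6%, beside 43.7%). The median log2 fold change of the members was -0.62 with control 2 left out and -0.09 with control 3 left out. Fitted without control 2, DESeq2 called 21 members lower and 1 higher, IFITM1, where it called 7.53% of all genes lower and 7.44% higher. Without control 3 it called 15 members lower and 12 higher, beside 17.7% and 13.5% of all genes. In both fits the lone control was assumed to vary like the cadmium pair, whose libraries agreed closely. The members called lower in both of these fits were BST2, HERC5, IFI27, IFIT1, IFIT3, IRF1, ISG15, ISG20 and OASL (9 genes, 21.4%, beside 2.67% of all genes with an adjusted p in both). By contrast, IFI44, OAS2, SAMD9 and SAMD9L (4 genes, 9.52%, beside 1.64%) were called lower without control 2 and higher without control 3. With either cadmium library left out no member was called, beside 0.0341% of all genes called lower and 0.0819% higher without cadmium 1, and 0.0125% and 0.0281% without cadmium 2.

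In 7 genes each cadmium library was at least 1.5-fold below each control (16.7%, beside 2.08% of all genes tested), with a library at 0 set to 3 counts. They were BST2, IFI27, IFIT1, ISG20, OASL, RSAD2 and USP18. They do not form a single functional class and comprise a virus tether, an RNA binder, a sensor partner, an exonuclease, a nucleotide enzyme, a protease and a mitochondrial protein. Relative to the median of their 40 nearest genes, 30 of the 42 members were lower, with a median log2 difference of -0.28. The same count over all genes was not made. Of the expressed genes in the list of other interferon-induced genes described below, 16 of 37 were lower than their neighbours. Their median log2 difference was 0.06.

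**Figure D4:**
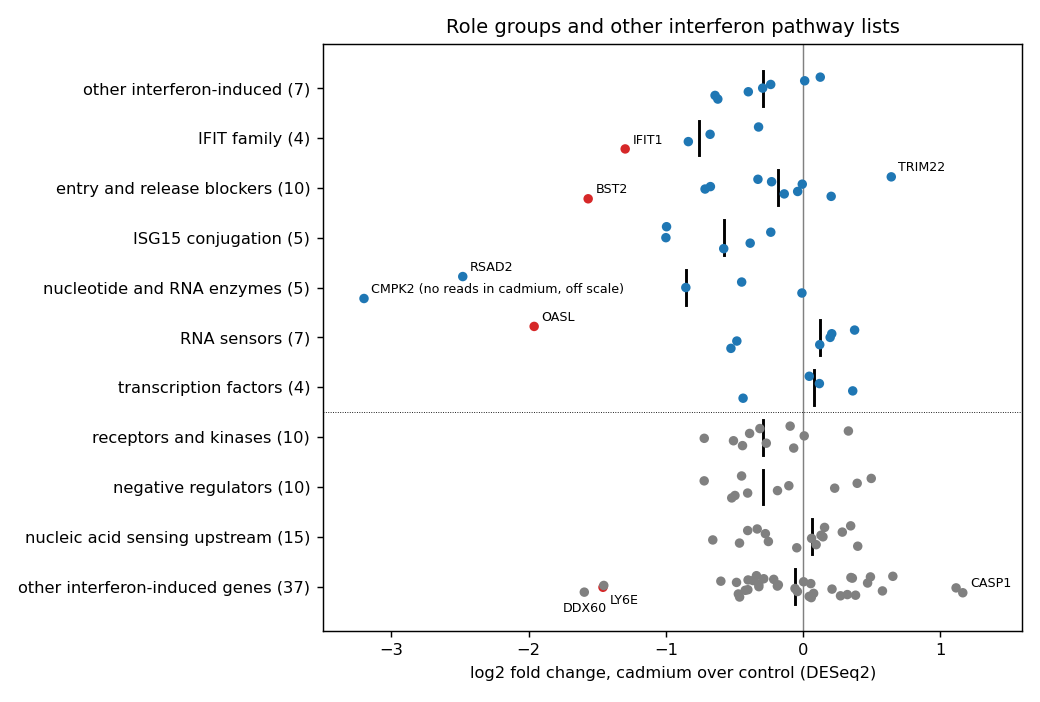
Log2 fold change of each gene (DESeq2, cadmium over control) by role, with members in blue, other genes of the pathway in grey, calls in red and the group median as a black bar, over expressed genes. Medians are lowest for the group labelled nucleotide and RNA enzymes, which includes PARP9 and DTX3L (-0.85), and for the IFIT family (-0.76). They are near 0 for RNA sensors (0.12) and transcription factors (0.08).

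Genes upstream and around the program were described from lists of named genes. Of 21 interferon ligand genes, 20 had no read in any library, which allows up to 3 counts in each, and IFNL1 had 4 reads in control 3 and 2 in cadmium 1. None of the 10 receptor and kinase genes was called, beside 1.13% of all genes tested. In 8 of them the log2 fold change was below 0 (median -0.29), beside 53.0% of expressed genes (median -0.03). The receptor subunit IFNGR2 had the lowest p of the 10 genes, with 3435 and 2738 normalized counts against 2126 and 2219 (log2 difference -0.51, DESeq2 adjusted p = 0.757). The type I receptor gene IFNAR1 differed by -0.07 and its partner IFNAR2, with at most 42.6 normalized counts, by -0.44. JAK1 differed by -0.39 on the same log2 scale, TYK2 by -0.09, JAK2 by 0.33, IFNGR1 by -0.27, IFNLR1 by -0.72 and IL10RB by 0.01. These directions depended on the control, since IFNAR1, IFNAR2, JAK1, JAK2 and IL10RB changed sign without control 2 and IFNLR1 without control 3, and IL10RB also did so without cadmium 1. None of the 10 negative regulators and none of the 15 sensing genes with enough reads was called, beside 1.13% of all genes tested. The lowest p among the regulators belonged to IRF2, PIAS1, TRIM24 and CISH, with log2 differences from -0.52 to -0.40. For the sensing genes they were TRIM25 (0.35), CGAS (0.40), TICAM1 (-0.40) and IRF5 (-0.66, but 0.47 without control 2).

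Among 40 other interferon-induced genes, 37 were expressed. Beside 1.13% of all genes tested, 1 gene of this list was called. This was LY6E, a surface protein of the Ly6 family that limits coronavirus entry, with 9032 and 11768 normalized counts in control and 3624 and 3948 in cadmium libraries (log2 fold change -1.46, SE 0.28, DESeq2 adjusted p = 6.91e-05). LY6E passed with neither edgeR nor limma-voom (adjusted p = 0.674 and 0.656), nor with either cadmium library left out. The list as a whole had 20 genes below 0 (54.1%, beside 53.0% of expressed genes) and 17 above. Its median was -0.06, beside -0.03 over expressed genes. Among the expressed genes of the list the next by p were ODF3B, CASP1, LGALS9 and TRIM38, and none passed. On the log2 scale ODF3B differed by -1.45, CASP1 by 1.17, LGALS9 by 1.12 and TRIM38 by 0.49 (DESeq2 adjusted p from 0.198 to 0.751). CASP1, the inflammatory caspase, thus had values in the opposite direction, with 109 and 269 in control and 390 and 456 in cadmium libraries.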

How the data were processed

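Control and cadmium-resistant MDA-MB-231 cells were compared by RNA-seq with 2 libraries each. As its methods and the header describe, the authors aligned trimmed read pairs to hg38 with HISAT2 and deposited raw counts per gene from featureCounts 2.0.1 on an Ensembl annotation, with no normalization. Under default settings strand is not used, multi-mapped reads and reads shared by genes are dropped, and each mate is counted (70.6% to 71.5% of counts from 1 to 20 were even). The control columns carry the numbers 2 and 3 where the labels number controls 1 and 2, so they were placed in the group without a number. No per-sample column was left unused (0).

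DESeq2 1.42.0 in R 4.3.3 was fitted on all genes (design: group, Wald test, two-sided, Benjamini-Hochberg, threshold 0.1, as the study used this tool), with size factors of 1.06 and 0.940 for the controls and 1.00 and 1.01 for cadmium. Independent filtering set a normalized mean of 7.65 as its minimum, and medians a mean of 10. Log2 ratios between libraries used a pseudocount of 1. TPM used merged exon length, which understates genes with long rarely used exons. Neighbours were the 40 nearest genes averaging 100 or more. Alternatives were edgeR 4.0.16, limma 3.58.1 (voom), other size factors and filters, halved counts and leaving out each library. On simulated counts, the fits were only required to recover the size of known fold changes, and no limit was set on false or missed calls. Both groups were simulated with the same spread, so the unequal spread of these control and cadmium pairs was not covered.

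Symbols were found for 61369 genes, and gene coordinates are as deposited. Named genes were all members and, from each pathway list, each called gene and up to 4 more with the lowest p. Receptors and kinases were named, except for an item that is not reported here. The members, lists and tests were chosen with earlier results of these data known, so no list was tested as a whole. With 51934729 to 61916007 counts per library, 3 counts correspond to 0.206 to 0.249 TPM for a gene of 1 kb.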

Additional observations from a re-analysis of the deposited data

How the results depend on the processing

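No paired analysis was possible because column numbers of the controls differ from those of the labels, so no replicate block could be fitted. The 3 calls among members were kept with TMM or upper-quartile factors, without independent filtering, with at least 10 counts in 2 libraries and with halved counts, and 2 were kept at an adjusted p below 0.05. With edgeR and with limma-voom, members called lower were 0, all genes called lower or higher 0 (106 and 119 in DESeq2, 1422 and 1423 at an unadjusted p below 0.05 in edgeR and limma-voom), and pathway genes called lower 0. Upper-quartile factors gave 88 genes lower and 152 higher, beside 106 and 119. Leaving out each library gave 0 to 21 members lower and 0 to 12 higher, 4 to 3510 genes lower and 9 to 2677 higher, and 0 to 19 pathway genes lower and 0 to 17 higher. The lowest counts came without a cadmium library and the highest member counts without a control. Without a cadmium library, the lone one was assumed to vary like the control pair, whose libraries lay further apart. The log2 fold change without cadmium 1 and without cadmium 2 was -1.50 and -1.65 for BST2. It was -1.19 and -1.42 for IFIT1, and -1.98 and -1.94 for OASL. The cause of the differing counts was not tested. The median log2 fold change of members stayed below 0 in all alternatives run, from -0.62 to -0.09.

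The sign of uncalled members changed in some fits. With limma-voom IFI44L was 0.33, SAMD9 0.18, SAMD9L 0.10 and PLSCR1 0.0014, with upper-quartile factors IFITM3 was 0.0209, DTX3L 0.0535 and PLSCR1 0.0545, and with the 10-count filter PLSCR1 was 0.00065. Over fits that left out a library, the log2 fold change ranged from -1.10 to 0.44 for DHX58, -0.12 to 0.10 for DTX3L, -0.0696 to 0.33 for EIF2AK2, -1.15 to 0.19 for EPSTI1, -0.80 to 0.17 for HERC6, -0.81 to 0.16 for IFI35, -0.90 to 0.74 for IFI44, -1.03 to 1.63 for IFI44L, -0.33 to 0.45 for IFI6, -0.16 to 0.68 for IFITM1, -0.44 to 0.23 for IFITM2 and -0.12 to 0.0331 for IFITM3. It ranged from -0.11 to 1.05 for IRF7, -0.16 to 0.45 for IRF9, -0.51 to 1.63 for OAS1, -0.52 to 1.73 for OAS2, -0.0768 to 0.0567 for PLSCR1, -0.95 to 1.25 for SAMD9, -1.06 to 1.18 for SAMD9L, -0.26 to 0.41 for STAT2, -0.15 to 2.51 for TRIM22 and -0.47 to 1.14 for XAF1. For pathway genes it ranged from -2.41 to 0.46 for DDX60, -0.28 to 0.16 for IFNAR1, -0.91 to 0.25 for IFNAR2, -1.25 to 0.10 for IFNLR1, -0.27 to 0.33 for IL10RB, -1.29 to 0.47 for IRF5, -0.78 to 0.13 for JAK1 and -0.0922 to 0.92 for JAK2. RSAD2 and CMPK2 had few reads and unequal controls, and these were not separated.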

Other observations

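DDX60, a helicase that promotes RNA sensing and belongs to the list of other interferon-induced genes, was chosen after its values were seen. Its normalized count was 724 for control 2 and 5337 for control 3, against 1024 for cadmium 1 and 983 for cadmium 2. The log2 fold change was -1.59 (SE 1.21) and did not pass (DESeq2 adjusted p = 0.963). It was 0.46 without control 3, the higher control here as for OASL. Among the 37 expressed genes of that list, control 3 was higher than control 2 in 25 (67.6%, beside 49.1% of all expressed genes). The controls were more than 2-fold apart in 11 (29.7%, beside 22.2%). Among the 10 negative regulators control 3 was the higher in 2, and among the 10 receptors and kinases in 5.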
